A study of Homo sapiens with 16 samples.

Results

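PRH, the homeodomain transcription factor encoded by HHEX, was brought by an adenovirus into CCLP1 cells that already carried a control short hairpin RNA (shRNA). The RNA of these cells was set against that of the same cells infected with an empty adenovirus. CCLP1 is an established human cell line of cholangiocarcinoma, a cancer of the bile duct epithelium. The comparison rests on 4 of the 16 libraries of the study, taken by their labels: 2 libraries with non-targetting shRNA and the myc-PRH adenovirus, and 2 with non-targetting shRNA and the empty adenovirus. All genes of these libraries are described. The cells of both groups therefore carry the same shRNA that has no target, and both were infected with an adenovirus. They differ in whether that virus encodes PRH with a myc tag. All libraries are of 1 cell line, so the p-values measure the spread between libraries of that line and not between tumours.

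The study asked how PRH and the receptor NOTCH3 act on each other in cholangiocarcinoma cells. Alongside the 4 libraries, its design holds CCLP1 cells with no shRNA that received the myc-PRH or the empty adenovirus (2 libraries each), cells with an shRNA against NOTCH3 that received either virus (2 each), and clones with an shRNA against HHEX or a control shRNA (2 each), the last not used here. Values are normalised counts, that is reads per gene divided by 1 factor per library. A fold change is given as log2 of the value plus 1, PRH virus over empty virus, which understates the change of genes with few reads. A gene was called when its adjusted p was under 0.05 in limma, a linear model that shares information on the spread across genes, with Benjamini-Hochberg adjustment over all genes tested. The spread was estimated over all 8 libraries that carry a control or NOTCH3 shRNA, and not over the 4 described here alone.

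PRH is needed in the embryo for the formation of the liver and of the first blood and endothelial cells. It binds DNA through its homeodomain, and as a repressor it recruits co-repressors of the Groucho/TLE family. It can also act on genes as an activator and can bind the translation factor eIF4E in the cytoplasm. In the adult liver it is found in hepatocytes and bile duct cells. Adenoviral vectors enter cells as DNA, do not integrate as a rule, and give a high and short-lived expression of the gene they carry.

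The PRH transcript was present as the labels say. HHEX stood at 228979.8 and 330421 in PRH virus libraries A and B, against 613 and 715 in empty virus libraries A and B, a log2 fold change of 8.70 (SE 0.22, adjusted p = 1.75e-07). It took 0.411% and 0.604% of all reads in genes with the PRH virus. Reads of the virus and of the cell's own HHEX gene are counted together, so these values do not show what the cell's gene did. The letters A and B follow the column order and are names only, and nothing pairs a PRH virus library with an empty virus library.

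The 4 libraries held 52044152 to 65448029 reads in genes, and their size factors lay within the range of 0.853 to 1.17 of their table. Libraries of the same group differed by more than counting noise, with a chi-square per degree of freedom of 43.5 for the PRH virus and 21.6 for the empty virus. The label of a bile duct cell was checked against 16 cholangiocyte markers, of which 14 had enough reads for the test. Of these 2 were called higher and 3 lower. The summed level of the markers was 32279 and 28270 with the PRH virus against 38017 and 35898 with the empty virus. The biliary keratins KRT7 and KRT19 were near absent: KRT7 was at 6.81 and 13.5 with the PRH virus and at 0 in both empty virus libraries. KRT19 was at 0.852 and 1.93 with the PRH virus against 11.3 and 55.4 with the empty virus. EPCAM, an epithelial adhesion molecule, was at 4.26 and 3.86 with the PRH virus against 14.3 and 28.3 with the empty virus. SOX9, a transcription factor of bile duct progenitors, was well expressed at 7414 and 5175 with the PRH virus, against 14565 and 13521 with the empty virus. Of 12 hepatocyte markers 8 were tested, with 0 called higher and 1 lower, and their summed level was 344 and 251 with the PRH virus against 444 and 448 with the empty virus. The call was that of ALB, the gene of serum albumin, at 2.55 and 12.6 with the PRH virus against 70.7 and 91.7 with the empty virus, which did not hold when 1 library or another was left out (adjusted p of up to 0.219), and APOB, TTR and FGB were at 0 in all 4 libraries. Of 9 endothelial markers 4 were tested and 1 called higher: VWF, the clotting factor of endothelium, was at 37.5 and 19.3 with the PRH virus and at 0 in both empty virus libraries, at least 8.78-fold higher. The endothelial summed level was 86.0 and 28.0 with the PRH virus against 34.8 and 35.1 with the empty virus, and CDH5, KDR and TEK were at 0 in all 4 libraries, as were the T and B cell markers CD3E and MS4A1. These cells thus carry the name of a bile duct line with few transcripts of KRT7 and KRT19.

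Of 15836 genes tested, 4282 were called, which is 27.0%. More genes rose than fell: 2412 (15.2%) were higher and 1870 (11.8%) were lower with the PRH virus, or 56.3% of calls higher, a share that was 70.0% after the libraries were scaled to equal totals instead, which moved the median of all genes by 0.0986 on the log2 scale. Changes upward were also larger, with a median log2 fold change of 1.02 among genes called higher and -0.59 among genes called lower, while the median over all genes tested was 0.00. At least 2-fold higher were 1230 genes (7.77%) and at least 2-fold lower 508 (3.21%), and beyond 8-fold there were 272 (1.72%) higher and 83 (0.524%) lower. The libraries of the groups did not overlap in any of the 4282 genes called, nor in 63.9% of all genes tested, called or not. The genes called lower held 20.5% of the normalised total with the PRH virus and 29.9% with the empty virus, and those called higher held 14.8% with the PRH virus and 8.12% with the empty virus.

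**Figure D1:**
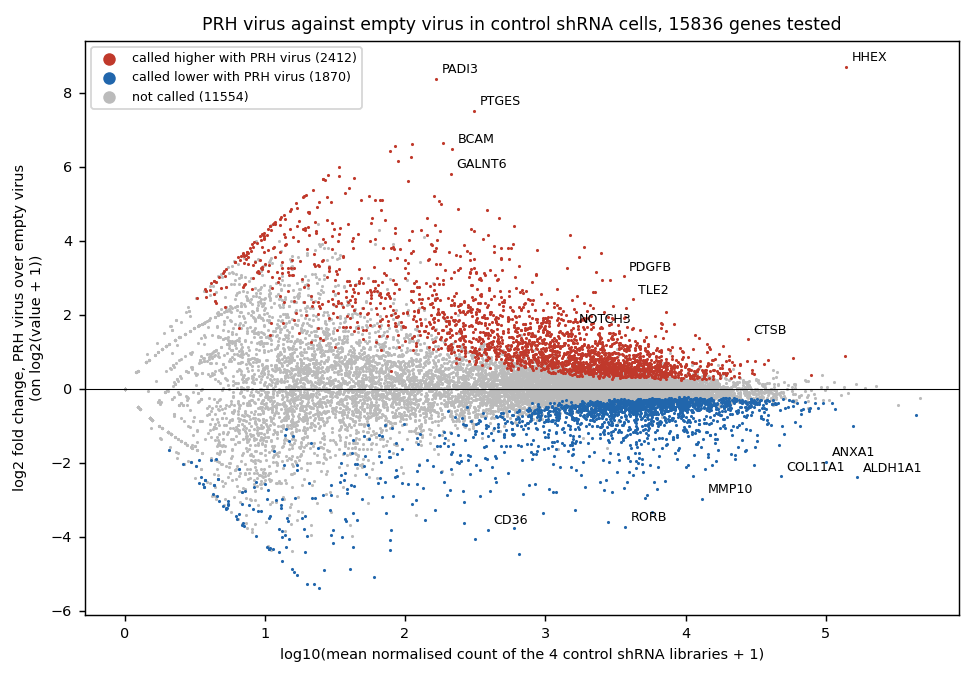
Each point is 1 of the 15836 genes tested, with the log10 of its mean normalised count plus 1 over the 4 control shRNA libraries on the horizontal axis and its log2 fold change, PRH virus over empty virus, on the vertical axis. Red points were called higher (2412), blue points lower (1870) and grey points were not called. HHEX stands alone at the upper right with a log2 fold change of 8.70, and genes with few reads that are at or near 0 in one group form the slanted edges at the left.

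The count of calls changed with the libraries used. It was 2891 and 2453 when PRH virus library A or B was left out, 2208 and 2605 when empty virus library A or B was, 2560 with the 4 control shRNA libraries alone, 5017 when the filter on low values also used those 4 alone, and 2730 without an intensity trend. A set of 1710 genes (1023 higher, 687 lower) was called whichever of the 4 libraries was left out. Genes are described below with their value in each library, and unless stated otherwise those named held their call in all 4 of these fits.

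Apart from HHEX, the genes that rose most were at or near 0 with the empty virus. PADI3, which encodes an enzyme that turns arginine of proteins into citrulline, stood at 307 and 357 with the PRH virus and at 0 in both empty virus libraries, at least 103-fold higher if each of those libraries is given a floor of 3 reads. BCAM, a surface receptor for laminin, stood at 490.5 and 361 with the PRH virus against 4.10 and 3.39 with the empty virus (log2 fold change 6.48, SE 0.58, adjusted p = 0.000101). GALNT6, which starts mucin-type O-glycosylation, reached 416 in each PRH virus library against 6.15 and 6.79 with the empty virus, a log2 fold change of 5.80 with an SE of 0.19. These levels are of single libraries, and a lack of overlap between the groups was a condition for naming genes by their large change.

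Secreted and signalling proteins were among the others. C3, the central component of complement, stood at 181 and 169 with the PRH virus against 5.12 and 0 with the empty virus (log2 fold change 6.15, adjusted p = 0.00099). P2RY2, a receptor for extracellular ATP and UTP, stood at 45.1 and 63.8 with the PRH virus and at 0 in both libraries with the empty virus, at least 16.8-fold higher. PRTN3, a serine protease of neutrophil granules, was at 152 and 276 with the PRH virus against 6.15 and 0 with the empty virus. HERC5, the ligase that attaches ISG15 to proteins, was at 26.4 and 104 with the PRH virus and at 0 with the empty virus, at least 20.2-fold higher, and its PRH virus libraries lie apart from each other. HR, a nuclear co-repressor named after the hairless mouse, had 45.1 and 123 with the PRH virus against 0 and 1.13 with the empty virus, where the ratio of 151 rests on 1 read and has a 95% counting interval of 26.8 to 6016. LGI3, a secreted protein of the nervous system, had 119 and 186 with the PRH virus against 2.05 and 0 with the empty virus, a ratio of 140.1 on 2 reads with an interval of 38.5 to 1162. Such intervals and floors cover only counting error, and without molecular identifiers reads need not stem from different molecules. In all, 61 genes called higher had no read in either empty virus library and a mean of at least 10 with the PRH virus, and 24 genes called lower had the reverse.

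The genes that fell most kept their call less well: of the 15 with the largest fall, 10 lost it when 1 library or another was left out, while all 15 with the largest rise held it. The 5 that held were AMIGO2, CD36, MIR137HG, FILIP1 and RORB. RORB, a nuclear receptor of the ROR family that binds DNA at clock-gene elements, stood at 729.8 and 363 with the PRH virus against 7285 and 6483 with the empty virus (log2 fold change -3.74, SE 0.28, adjusted p = 4.48e-05). FILIP1, which binds filamin A, stood at 93.7 and 71.5 with the PRH virus against 1160.2 and 1081 with the empty virus (log2 fold change -3.76, SE 0.20). CD36, a scavenger receptor that takes up fatty acids, stood at 43.4 and 58.0 with the PRH virus against 849 and 613 with the empty virus (log2 fold change -3.82, SE 0.40). AMIGO2, an adhesion molecule with leucine-rich repeats, fell to 22.1 and 1.93 with the PRH virus, against 123 and 159.5 with the empty virus. The host transcript of the microRNA miR-137, MIR137HG, fell to 9.37 and 9.66 with the PRH virus, against 152 and 143 with the empty virus. CPA4, a carboxypeptidase, shows the other kind: it had 44.3 and 68.6 with the PRH virus against 1269 and 1223 with the empty virus, yet its log2 fold change of -4.47 has an SE of 1.39. That SE draws on the spread in all 8 libraries of the model, and is not the spread of these 4 values. CPA4 had a log2 fold change of -4.16 without PRH virus library A and -4.78 without library B. Its adjusted p of 0.0407 became 0.165 or 0.127 when PRH virus library A or B was left out, and 0.165 or 0.151 when empty virus library A or B was.

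**Figure D2:**
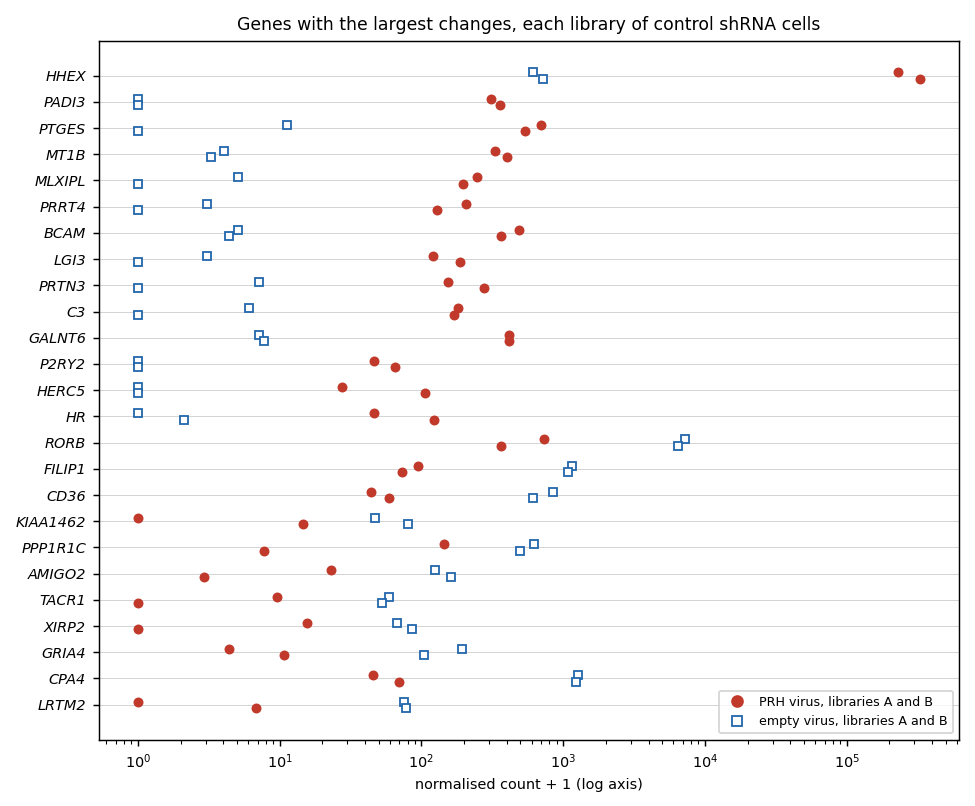
Normalised count plus 1 on a log axis for the genes with the largest changes in either direction, apart from those with LOC, antisense or microRNA host names, HHEX to HR being those called higher and RORB to LRTM2 those called lower. Filled circles are the PRH virus libraries and open squares the empty virus libraries, with library A drawn above library B. For the genes that rose other than HHEX, the empty virus libraries lie at 0 to 10.2, and the genes that fell keep counts of 0 to 729.8 with the PRH virus.

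Among the genes with the most reads that rose at least 2-fold, CTSB, the lysosomal protease cathepsin B, stood at 35389 and 44418 with the PRH virus against 15151 and 16426 with the empty virus (log2 fold change 1.33, SE 0.15, adjusted p = 0.000363). CD9, a tetraspanin of the cell surface, was at 15636 and 18579 with the PRH virus against 5947 and 6619.6 with the empty virus. SFN, the epithelial 14-3-3 protein sigma, was at 19527 and 16228 with the PRH virus against 6550.0 and 7239 with the empty virus. ATP11A, a lipid flippase of the plasma membrane, had the largest rise among those named here after HHEX, at 13249 and 12141 with the PRH virus against 4048 and 3571 with the empty virus (log2 fold change 1.74, SE 0.10). EEF1A2, an elongation factor of translation that is normally found in muscle and nerve, stood at 20230.2 and 20492 with the PRH virus against 9525 and 9015 with the empty virus. LASP1, an actin-binding adaptor, and PLXNB2, a semaphorin receptor, had log2 fold changes of 1.14 and 1.06, beside the metallothionein MT2A, which is described below. In the list of lysosome and autophagy genes 11 of 32 were called higher and 1 lower, of which 3 and 0 held whichever library was left out.

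The genes with the most reads that fell were led by ALDH1A1, which makes retinoic acid from retinal and is used as a marker of cancer stem cells. It stood at 60662 and 46828 with the PRH virus against 289296 and 274105 with the empty virus (log2 fold change -2.40, SE 0.15, adjusted p = 2.09e-05). ANXA1, a membrane-binding protein that curbs inflammation, stood at 47799 and 34381 with the PRH virus against 172354 and 146793 with the empty virus (log2 fold change -1.97, SE 0.16). AKAP12, a scaffold for protein kinase A, was at 98781 and 108422 with the PRH virus against 218702 and 198231 with the empty virus. S100A10, the partner of annexin A2, was at 43979 and 43165 with the PRH virus against 92954 and 83639.5 with the empty virus. DST, a linker of cytoskeletal filaments, fell by 1.54 and PEG10, an imprinted gene derived from a retrotransposon, by 1.43 on the log2 scale. In each of these genes the libraries of a group lie close together compared with the distance between the groups. A call, a change of at least 2-fold and a lack of overlap were conditions for naming genes by their high level, in either direction. CTGF, a matricellular protein, had 37669 and 26557 with the PRH virus against 70985 and 58349 with the empty virus. Its adjusted p of 0.016 was 0.126 without PRH virus library B, and 0.122 or 0.0506 when empty virus library A or B was left out.

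The partners of PRH changed too. Of the 7 genes in a list of HHEX and its co-repressors, 5 were called higher, HHEX itself among them, and 1 lower, and 4 and 1 held whichever library was left out. TLE2, a co-repressor of the Groucho family, stood at 6708 and 7529 with the PRH virus against 1267 and 1387 with the empty virus (log2 fold change 2.42, SE 0.14, adjusted p = 1.57e-05). TLE6 stood at 973 and 1048 with the PRH virus against 101 and 50.9 with the empty virus (log2 fold change 3.79, SE 0.45). TLE4 went the other way and stood at 14.5 and 6.76 with the PRH virus against 50.2 and 71.3 with the empty virus (log2 fold change -2.47, SE 0.36). TLE3 was not called, at 2288 and 1885 with the PRH virus against 3060.3 and 2515 with the empty virus (adjusted p = 0.0504). The family members thus did not move in 1 direction.

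Metallothioneins, small proteins that bind zinc and copper and are switched on by metals through the factor MTF1, rose as a group. Of 12 tested members of a list of metallothioneins and zinc transporters, 9 were called higher and 1 lower, with a median log2 fold change of 1.55 against 0.00 over all genes, and 6 of the 9 held whichever library was left out. MT1F stood at 3681 and 5245 with the PRH virus against 632 and 521 with the empty virus (log2 fold change 2.94, SE 0.29). MT1A was at 3081 and 3696 with the PRH virus against 883 and 835 with the empty virus (log2 fold change 1.97, SE 0.22). MT1X stood at 4604 and 5367 with the PRH virus against 1899 and 1874 with the empty virus (log2 fold change 1.40, SE 0.11). MT1B, nearly silent with the empty virus at 3.07 and 2.26, had 331 and 402 with the PRH virus (log2 fold change 6.65, SE 0.93). MT2A had 18145 and 21339 with the PRH virus against 8836 and 8298 with the empty virus. Its adjusted p of 0.00628 was 0.0572 without PRH virus library B and 0.0502 without empty virus library B. The zinc importer SLC39A10 stood at 2196 and 2091 with the PRH virus against 4683 and 4945 with the empty virus (log2 fold change -1.17, SE 0.16). Metallothionein genes are near-identical copies, so reads may be split among them and single members are less certain than the group.

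The promoters of MT1X and MT1B are printed because the metallothioneins moved together and their switch by metals works through a known short element. Capitals mark the core of the metal response element, TGCACNC or TGCGCNC on either strand, in the 250 bases before the start of the gene on the plus strand (RefSeq, GRCh38.p14), at chr16:56682220-56682469 for MT1X and at chr16:56651636-56651885 for MT1B.
MT1X: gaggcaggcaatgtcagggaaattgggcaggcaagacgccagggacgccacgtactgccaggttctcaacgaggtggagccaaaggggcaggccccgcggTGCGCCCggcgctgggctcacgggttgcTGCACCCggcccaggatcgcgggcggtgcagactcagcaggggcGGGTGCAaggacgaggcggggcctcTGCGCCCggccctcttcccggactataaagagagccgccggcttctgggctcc
MT1B: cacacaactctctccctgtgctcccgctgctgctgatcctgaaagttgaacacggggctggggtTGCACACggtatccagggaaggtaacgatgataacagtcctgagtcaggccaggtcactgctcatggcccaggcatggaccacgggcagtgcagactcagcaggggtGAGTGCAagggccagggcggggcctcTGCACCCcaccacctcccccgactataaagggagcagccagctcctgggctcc
The element is found 4 times before MT1X and 3 times before MT1B. Promoters from 250 bases before to 50 after the start were at hand for 8 list members. Of these 8, 5 hold the element at least once, and the same 5 hold it at least 2 times. Of all 35116 promoters, 29.6% hold it at least once and 8.60% at least 2 times. A match is a description of letters and not a bound site.

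Genes induced by interferons, the cytokines of the antiviral response, formed another group that rose. Of 29 tested interferon-stimulated genes, 16 were called higher and 0 lower, with a median log2 fold change of 1.29, and 9 of the 16 held whichever library was left out. OAS3, which senses double-stranded RNA, stood at 145 and 105 with the PRH virus against 8.20 and 21.5 with the empty virus (log2 fold change 3.11, SE 0.35). ISG15, a ubiquitin-like modifier, stood at 1725 and 1784 with the PRH virus against 861 and 738 with the empty virus (log2 fold change 1.14, SE 0.13). IFIT3, a binder of viral RNA, had 31.5 and 46.4 with the PRH virus against 0 and 1.13 with the empty virus, a ratio of 71.5 on 1 read with a counting interval of 12.5 to 2858. Both groups were infected with an adenovirus, and of the virus doses nothing is given in the sources used here.

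The promoters of ISG15 and IFIT3 show the element that the interferon-activated factors are known to bind. Capitals mark the core of the interferon-stimulated response element, that is GAAA, any 2 bases and GAAA again on either strand, in the 250 bases before the start on the plus strand (RefSeq, GRCh38.p14), at chr1:1013247-1013496 for ISG15 and chr10:89327747-89327996 for IFIT3. In ISG15 its 2 matches overlap.
ISG15: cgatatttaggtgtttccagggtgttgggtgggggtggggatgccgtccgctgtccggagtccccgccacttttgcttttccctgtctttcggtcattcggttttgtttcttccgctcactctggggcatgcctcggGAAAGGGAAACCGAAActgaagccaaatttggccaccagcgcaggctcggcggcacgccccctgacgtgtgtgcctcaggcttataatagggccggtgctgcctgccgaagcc
IFIT3: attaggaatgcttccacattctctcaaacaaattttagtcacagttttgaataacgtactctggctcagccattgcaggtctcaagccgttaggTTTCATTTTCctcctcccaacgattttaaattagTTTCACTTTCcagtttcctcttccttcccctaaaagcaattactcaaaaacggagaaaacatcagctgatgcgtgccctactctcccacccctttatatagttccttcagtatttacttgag
Of 23 listed interferon-stimulated genes with a promoter at hand, 14 hold the element at least once, against 3.57% of all promoters, and of the 12 among them that were called higher 8 hold it. The motif TGGGAA, bound by the Notch effector RBPJ, was searched in the same way and is in 5 of 8 promoters of Notch target genes, in 3 of the 6 among them that were called higher, and in 24.0% of all promoters.

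Antigen presentation by MHC class I showed the same direction, with 8 of 13 tested members called higher, 0 lower and a median log2 fold change of 0.62, and 4 of the 8 held whichever library was left out. HLA-B, a classical class I heavy chain, stood at 584 and 781 with the PRH virus against 86.1 and 122 with the empty virus (log2 fold change 2.71, SE 0.36), although its reads can be shared with the related class I genes. PSME1 and PSME2, the subunits of the proteasome activator that is induced by interferon, had log2 fold changes of 1.12 and 0.98. In the list of inflammatory cytokines and NF-kB genes 10 of 21 were called higher and 2 lower, and 6 and 1 held. LIF, a cytokine of the interleukin-6 family, stood at 3132 and 6122 with the PRH virus against 264 and 446 with the empty virus (log2 fold change 3.67, SE 0.36), with PRH virus library B above A. TRAF1, an adaptor of TNF receptors, had a log2 fold change of 3.79 and NFKBIA, the inhibitor of NF-kB, one of 1.23. Of 12 tested chemokines 4 were called higher and 1 lower, of which 1 and 0 held whichever library was left out. The summed level of the listed chemokines was 3192 and 3559 with the PRH virus against 5902 and 4280 with the empty virus. CXCL16, a chemokine that is made as a membrane protein, stood at 898 and 1208 with the PRH virus against 65.6 and 84.9 with the empty virus. Markers of leukocytes, which also express many of these genes, were near 0 apart from CD68: of 10 listed markers 6 were tested and 0 called. PTPRC was at 6.81 and 0 with the PRH virus against 0 and 3.39 with the empty virus. The summed level of 6502 and 10967 with the PRH virus against 4202 and 6417 with the empty virus is nearly all CD68, a lysosomal protein that many cells make.

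**Figure D3:**
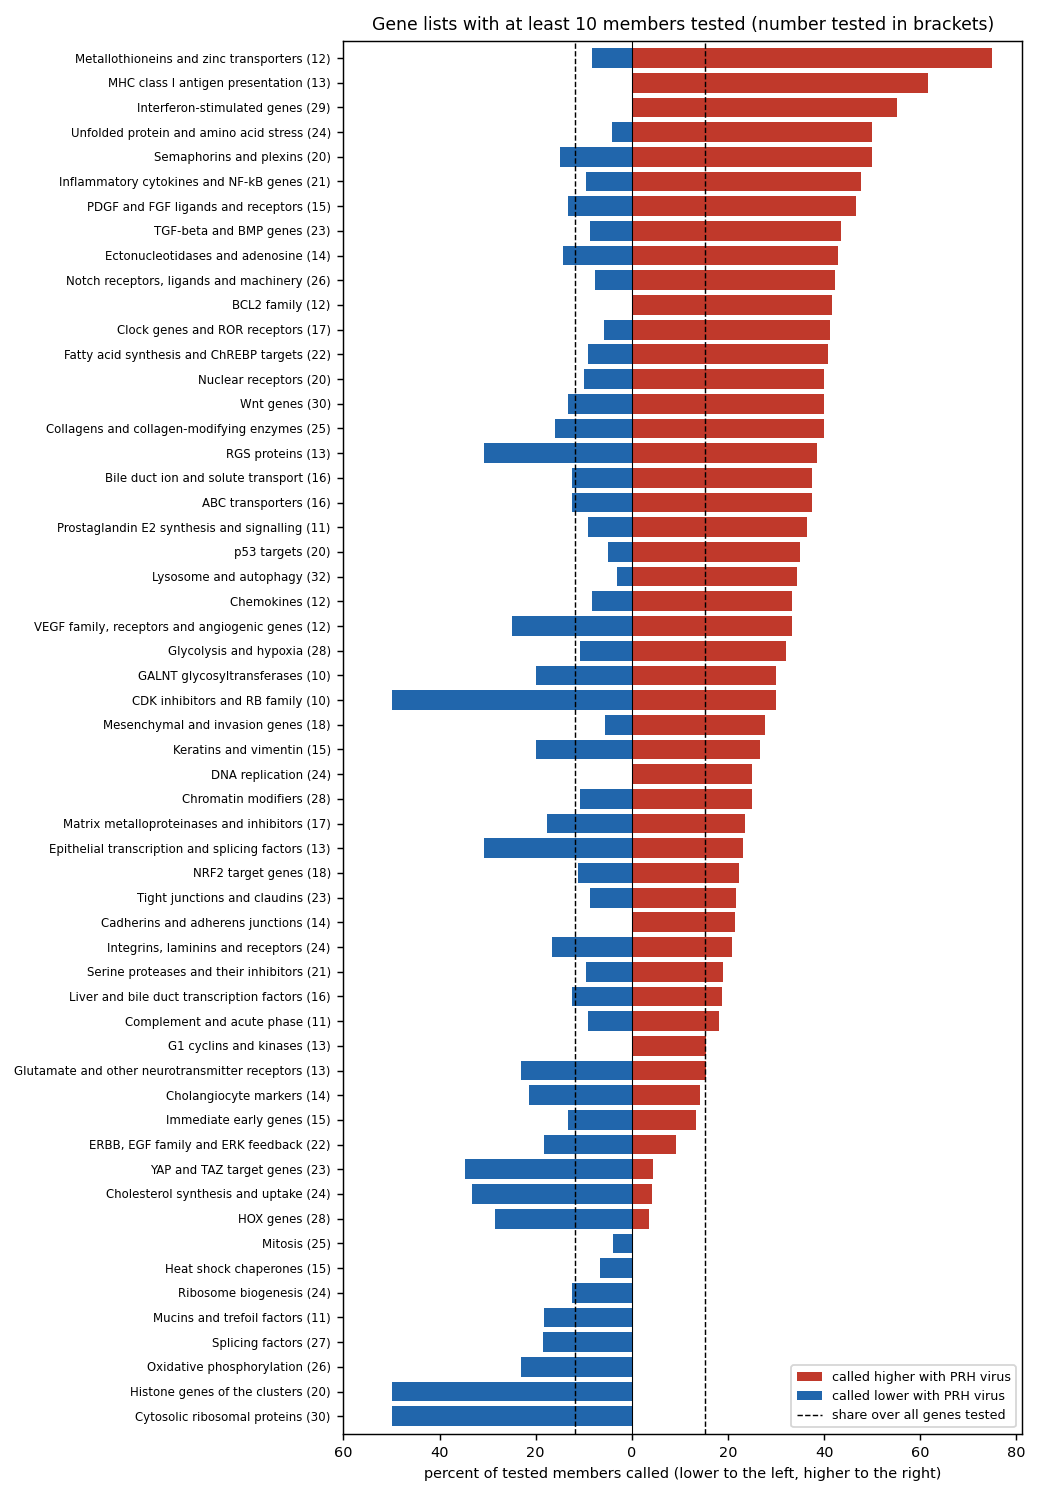
Gene lists with at least 10 tested members, with the percent of tested members called higher with the PRH virus to the right in red and lower to the left in blue, and the number tested in brackets. Dashed lines give the share over all 15836 genes tested, 15.2% higher and 11.8% lower. Metallothioneins, antigen presentation and interferon-stimulated genes stand at the top, and ribosomal protein and histone genes, with 0 members called higher, at the bottom.

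Extracellular matrix genes split into those that rose and those that fell. Of 25 tested collagens and collagen-modifying enzymes, 10 were called higher and 4 lower, with a median log2 fold change of 0.80, and 5 and 3 held whichever library was left out. COL6A1 and COL6A2, chains of the microfibrillar collagen VI, stood at 2061 and 2149, and 3658 and 3793, with the PRH virus, against 387 and 268, and 1139.7 and 1275, with the empty virus, log2 fold changes of 2.70 and 1.63. COL11A1 and COL5A2, chains of collagens that regulate fibril diameter, fell by 2.36 and 2.07 on the log2 scale: COL11A1 was at 17375 and 13778 with the PRH virus against 81737 and 77421 with the empty virus. COL1A2 fell by 1.23, whereas COL1A1, the other chain of collagen I, singled out after its values were seen, stood at 858 and 525 with the PRH virus against 264 and 153 with the empty virus (log2 fold change 1.73, SE 0.32, adjusted p = 0.0044).

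Of 17 tested matrix metalloproteinases and inhibitors, 4 were called higher and 3 lower, and 3 and 2 held whichever library was left out. MMP10, a secreted protease also called stromelysin, stood at 3269 and 2641 with the PRH virus against 22202 and 24234 with the empty virus (log2 fold change -2.98, SE 0.17, adjusted p = 1.63e-05). MMP15, a protease anchored in the membrane, stood at 1977 and 2206 with the PRH virus against 397 and 533 with the empty virus (log2 fold change 2.18, SE 0.15). The inhibitors TIMP1 and TIMP2 had log2 fold changes of 1.59 and 1.18. Of 24 integrins, laminins and their receptors, 5 were called higher and 4 lower, shares near those over all genes tested, and 4 and 3 held. ITGA3, an integrin chain for laminin receptors, stood at 3836 and 3871 with the PRH virus against 569 and 709 with the empty virus (log2 fold change 2.60, SE 0.16). In contrast ITGB8, a chain of the integrin that activates TGF-beta, stood at 80.9 and 78.2 with the PRH virus against 661 and 543 with the empty virus (log2 fold change -2.90, SE 0.29). LAMA1, a laminin chain, was at 30.7 and 53.1 with the PRH virus and at 0 in both empty virus libraries, at least 13.0-fold higher. ITGA5, the fibronectin receptor chain, stood at 10729 and 10146 with the PRH virus against 3047 and 3231 with the empty virus.

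Fibroblast markers, which include several of these matrix genes, moved in both directions. Of 12 listed, 8 were tested, 4 called higher and 4 lower. FBLN1, a matrix glycoprotein, rose with a log2 fold change of 3.20 and PDGFRB, a PDGF receptor, with one of 4.01. In contrast ACTA2, smooth muscle actin, was at 7516 and 5545 with the PRH virus against 26023 and 18850.5 with the empty virus, and FAP, a surface protease, had a log2 fold change of -1.63. The defining markers PDGFRA and DCN were at 0 in both PRH virus libraries, and with the empty virus PDGFRA was at 0 and DCN at 8.20 and 2.26. Summed over the list the level was 65963 and 48435 with the PRH virus against 134161 and 110646 with the empty virus, of which COL1A2 makes the most. In RNA of whole cultures, fewer cells of a kind and less RNA per cell cannot be told apart.

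Semaphorins are guidance proteins that act through plexin and neuropilin receptors. Of 20 tested semaphorins and plexins, 10 were called higher and 3 lower, with 8 and 3 of these holding whichever library was left out. The 3 that fell are secreted class 3 members: SEMA3A stood at 2006 and 1548 with the PRH virus against 9935 and 10343 with the empty virus (log2 fold change -2.52, SE 0.14, adjusted p = 1.57e-05), SEMA3D had a log2 fold change of -1.77 and SEMA3C one of -1.46. SEMA3F, also secreted and of class 3, went up to 966 and 1193 with the PRH virus, against 158 and 169 with the empty virus (log2 fold change 2.71, SE 0.15). SEMA4B, a membrane-bound member, had a log2 fold change of 2.04, and the receptor PLXNB1 one of 1.56.

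In the lists of PDGF and FGF and of TGF-beta and BMP genes more were called higher than lower. The list of ERBB receptors, ligands and feedback genes had 2 of 22 higher and 4 lower. Of 15 tested PDGF and FGF ligands and receptors, 7 were called higher and 2 lower, and 5 and 1 held whichever library was left out. PDGFB, a ligand for PDGF receptors, stood at 5803 and 7065 with the PRH virus against 682 and 892 with the empty virus (log2 fold change 3.04, SE 0.19). The receptor FGFR3 was at 2634 and 2617 with the PRH virus against 523 and 472 with the empty virus (log2 fold change 2.40, SE 0.28). PDGFC, a further ligand, was at 2633 and 1577 with the PRH virus against 5797 and 5963 with the empty virus (log2 fold change -1.53, SE 0.22). In the TGF-beta and BMP list 10 of 23 were called higher and 2 lower, and 6 and 1 held. GDF15, a stress-induced ligand of the family, stood at 1802 and 3342 with the PRH virus against 198 and 328 with the empty virus (log2 fold change 3.26, SE 0.38), and the signal carrier SMAD3 had a log2 fold change of 1.71. TGFBR2, the receptor that binds TGF-beta, was at 15539 and 13483 with the PRH virus against 31128 and 27609.8 with the empty virus, and TGFB2, one of its ligands, had a log2 fold change of -0.87.

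In the Wnt list 12 of 30 were called higher and 4 lower, of which 4 and 2 held whichever library was left out. FZD5, a Wnt receptor, stood at 1345 and 1281 with the PRH virus against 509 and 386 with the empty virus, and the nuclear effector TCF7 had a log2 fold change of 1.16. FZD8, another receptor, was at 719 and 684 with the PRH virus against 2138 and 2719 with the empty virus, and DKK1, a secreted inhibitor of the pathway, fell by 1.01 on the log2 scale. ERBB3, a receptor for neuregulins, stood at 439 and 650.1 with the PRH virus against 132 and 111 with the empty virus, in a list of ERBB receptors, ligands and feedback genes of which 2 of 22 were called higher and 4 lower, and 1 and 1 held. RGS proteins, which switch off G proteins, had 5 of 13 members called higher and 4 lower, of which 1 and 3 held whichever library was left out. RGS2 stood at 5472 and 4779 with the PRH virus against 17912 and 17763 with the empty virus (log2 fold change -1.80, SE 0.09), RGS1 had a log2 fold change of -2.24 and RGS20 one of -1.80.

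In the Notch pathway 11 of 26 tested receptors, ligands and processing genes were called higher and 2 lower, and of 8 target genes 6 were called higher and 0 lower. Whichever library was left out, 9 and 1 of the first and 4 of the second held. NOTCH3 stood at 2295 and 2488 with the PRH virus against 711 and 838 with the empty virus (log2 fold change 1.63, SE 0.24, adjusted p = 0.0012). NOTCH1 had 4641 and 4464 with the PRH virus against 1343 and 1377 with the empty virus. The ligand gene JAG2 had 6021 and 5469 with the PRH virus against 1604 and 1462 with the empty virus. HES2, a repressor of the HES family, had a log2 fold change of 1.89 and DTX4, a ubiquitin ligase of the pathway, one of 1.51. ADAM10, the protease that cuts Notch receptors at the cell surface, was slightly lower, with a log2 fold change of -0.58 (SE 0.09).

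Inhibitors of the cell cycle changed in both directions. CDKN1A, the inhibitor p21, stood at 8896 and 10998 with the PRH virus against 3539 and 4188 with the empty virus (log2 fold change 1.36, SE 0.16, adjusted p = 0.000376). CDKN1C, the inhibitor p57, was at 64.7 and 66.7 with the PRH virus against 3.07 and 6.79 with the empty virus (log2 fold change 3.57, SE 0.50). CDKN2B, the inhibitor p15, went to 1735 and 1885 with the PRH virus, against 6921 and 7149 with the empty virus (log2 fold change -1.96, SE 0.14). CDKN1B, the inhibitor p27, went to 1540.4 and 1537 with the PRH virus, against 3182 and 3012 with the empty virus (log2 fold change -1.01, SE 0.09). Over the 10 tested inhibitors and RB family members, 3 were called higher and 5 lower, or 3 and 2 after scaling to equal totals. Of 25 mitosis genes 0 were called higher and 1 lower, and of 24 DNA replication genes 6 were called higher and 0 lower. The count of DNA replication genes called higher was 10 after scaling to equal totals, and 1 call held whichever library was left out, that of MCM6, a subunit of the replicative helicase, at 9108 and 9559 with the PRH virus against 6194 and 6462 with the empty virus (log2 fold change 0.56, SE 0.09).

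Of 20 p53 targets, 7 were called higher and 1 lower, and 3 and 1 held whichever library was left out. In parental cells 2 of these 20 were called higher and 5 lower. TNFRSF10B, a death receptor for TRAIL, stood at 4506 and 5100.5 with the PRH virus against 2115 and 1973 with the empty virus (log2 fold change 1.23, SE 0.11). PLK2, a kinase, was at 11549.5 and 7509 with the PRH virus against 25246 and 22530.3 with the empty virus. In the BCL2 family 5 of 12 were called higher and 0 lower, and 3 held. All 3 named here promote cell death: BIK stood at 292 and 473 with the PRH virus against 34.8 and 22.6 with the empty virus (log2 fold change 3.68, SE 0.32), and BID and BAD had log2 fold changes of 0.60 and 0.54.

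Nuclear receptors had 8 of 20 called higher and 2 lower, of which 7 and 2 held whichever library was left out. Clock genes had 7 of 17 called higher and 1 lower, RORB, of which 4 and 1 held. The orphan receptors NR2F1 and NR2F2 stood at 10219 and 6506, and 4449 and 3347, with the PRH virus, against 27615 and 24297, and 10159.7 and 9429, with the empty virus, log2 fold changes of -1.67 and -1.34. Their relative NR2F6 went the other way, at 8399 and 8048 with the PRH virus against 4021 and 4025 with the empty virus. PPARA, a receptor for fatty acids, had a log2 fold change of 1.58. DBP, an output factor of the clock, stood at 794 and 905 with the PRH virus against 154 and 181 with the empty virus (log2 fold change 2.34, SE 0.28). Among HOX genes 1 of 28 was called higher and 8 lower, of which 0 and 3 held, HOXB5 with a log2 fold change of -1.32 and HOXB8 with one of -0.88. GATA4, a factor of early liver and gut, was at 38.3 and 33.8 with the PRH virus and at 0 in both empty virus libraries, at least 11.1-fold higher.

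Of 28 chromatin modifiers 7 were called higher and 3 lower, of which 3 and 2 held whichever library was left out. HDAC9, a class II histone deacetylase, stood at 1827 and 1580.4 with the PRH virus against 8055 and 8291 with the empty virus (log2 fold change -2.26, SE 0.17), whereas HDAC7 of the same class and the DNA methyltransferase DNMT3A each had a log2 fold change of 0.74. Peptidylarginine deiminases, besides PADI3, rose in both other tested members: PADI2 stood at 3869 and 4408 with the PRH virus against 466 and 458 with the empty virus (log2 fold change 3.16, SE 0.23). PADI1 was at 304 and 221 with the PRH virus against 60.5 and 31.7 with the empty virus.

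Metabolic genes moved in both directions. MLXIPL, the glucose-responsive factor ChREBP, had 246 and 194 with the PRH virus against 4.10 and 0 with the empty virus, and of 22 genes for fatty acid synthesis and ChREBP targets 9 were called higher and 2 lower, of which 6 and 0 held whichever library was left out. LPIN3, a phosphatidate phosphatase, stood at 1428 and 1809 with the PRH virus against 94.3 and 148 with the empty virus (log2 fold change 3.75, SE 0.26). DGAT2, which makes triglycerides, was at 1113 and 1629 with the PRH virus against 359.7 and 373 with the empty virus. FASN and GPAM were called lower, calls that were lost when 1 library or another was left out. The summed level of the list was 256822 and 282027 with the PRH virus against 281795 and 312897 with the empty virus, where the groups overlap. Cholesterol synthesis and uptake had 1 of 24 called higher and 8 lower, 0 and 4 of which held whichever library was left out. STARD4, a carrier of cholesterol, stood at 9642 and 9152 with the PRH virus against 19104 and 16608 with the empty virus (log2 fold change -0.92, SE 0.13). In parental cells the cholesterol list went the other way, with 8 of 23 tested members called higher and 1 lower. Its median log2 fold change was 0.29 there and -0.31 in control shRNA cells. In the list of glycolysis and hypoxia genes 9 of 28 were called higher and 3 lower, of which 5 and 0 held, and 14 were higher after scaling to equal totals. SLC2A1, the glucose transporter GLUT1, stood at 2102 and 2012 with the PRH virus against 767 and 881 with the empty virus. NT5E, which makes adenosine outside the cell, stood at 12834 and 12465 with the PRH virus against 42181 and 39469.5 with the empty virus (log2 fold change -1.69, SE 0.08). ENTPD2, which cleaves ATP, had a log2 fold change of 3.73.

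Over all genes tested 15.2% were called higher and 11.8% lower, and the counts of cadherin and tight junction genes lay near those shares. Of cadherin and adherens junction genes 3 of 14 were called higher and 0 lower, of tight junction genes 5 of 23 higher and 2 lower, and of desmosome genes 3 of 8 higher and 1 lower. Whichever library was left out, 3 and 0, 4 and 1, and 1 and 0 of these calls held. JUP, the junction protein plakoglobin, stood at 5536 and 3948 with the PRH virus against 1473 and 1107 with the empty virus (log2 fold change 1.87, SE 0.17). F11R, a tight junction adhesion molecule, was at 1369 and 1229.7 with the PRH virus against 233 and 261 with the empty virus (log2 fold change 2.39, SE 0.14). CLDN1 and DSC2 were called lower, calls that were lost when 1 library or another was left out. Of 15 tested keratins and vimentin 4 were called higher and 3 lower, and 2 and 1 held. KRT80, an epithelial keratin, had a log2 fold change of 3.12. Of 13 tested epithelial transcription and splicing factors 3 were called higher and 4 lower, and 0 and 1 held. CDH1, the epithelial cadherin, was not called, at 61.3 and 21.3 with the PRH virus against 14.3 and 106 with the empty virus, where the groups overlap. SNAI1, a repressor of epithelial genes, had a log2 fold change of 1.14 and ZEB2 one of -0.83. SPINT2, an inhibitor of the protease matriptase, stood at 5098 and 4868 with the PRH virus against 1789 and 1588 with the empty virus (log2 fold change 1.56, SE 0.09). TFPI, the inhibitor of tissue factor, stood at 1517 and 1064 with the PRH virus against 9292 and 9302 with the empty virus (log2 fold change -2.87, SE 0.17). SLC9A3R1, a scaffold for apical transporters, had a log2 fold change of 1.07, and SLC4A4, a bicarbonate cotransporter, one of -1.76.

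Genes for cytosolic ribosomal proteins, oxidative phosphorylation and splicing had small and mostly negative log2 fold changes in control shRNA cells. In parental cells 0 of 30 cytosolic ribosomal protein, 0 of 26 oxidative phosphorylation and 0 of 27 splicing factor genes were called higher or lower. Their median log2 fold changes there were -0.05, 0.02 and -0.09. In control shRNA cells 0 of 30 cytosolic ribosomal protein genes were called higher and 15 lower, with 30 of 30 below 0 in log2 fold change and a median of -0.31. The count was 10 after scaling to equal totals, and 3 of the 15 held whichever library was left out. RPL5 was the clearest, at 17957 and 18904 with the PRH virus against 28464 and 28680.2 with the empty virus (log2 fold change -0.63, SE 0.08). Oxidative phosphorylation had 0 of 26 higher and 6 lower, and splicing factors 0 of 27 higher and 5 lower, and after scaling to equal totals these counts became 2 and 2, and 1 and 1. In both lists 0 of the calls held whichever library was left out. Clustered histone genes fell further, with a median log2 fold change of -1.50 in control shRNA cells. Of 20 tested 10 were called lower and 0 higher, and 6 held. HIST1H2BD was at 555 and 475 with the PRH virus against 4013 and 2599 with the empty virus. Histone genes have near-identical copies, which makes single members uncertain. Most of these transcripts lack a poly(A) tail, by which the RNA was selected, and the part of that selection was not tested.

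The genes called higher had transcripts richer in G and C. The median GC content of the longest annotated transcript (GENCODE 29) was 57.6% for the genes called higher, 42.9% for those called lower and 48.4% for those not called, over 92.7%, 90.3% and 86.7% of the genes in each class. Across 11123 genes Spearman's rho of GC content with the difference between the groups was 0.448, against -0.046 for the difference between the PRH virus libraries and 0.13 for that between the empty virus libraries. Genes are not independent replicates and the values are a description, and the part of GC content in the fold changes of single genes was not tested. In parental cells the same measure was 0.581 between the groups, with 0.053 within the PRH virus pair and 0.353 within the empty virus pair. In the cells labelled NOTCH3 shRNA it was 0.192 between the groups.

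The same virus had been given to CCLP1 cells without an shRNA, in a table that the authors normalised separately, so the values are set side by side with no test of the difference. There, 2073 of 13263 genes tested (15.6%) were called, 1313 (9.90%) higher and 760 (5.73%) lower, with HHEX at 101992 and 69971 with the PRH virus against 308 and 423 with the empty virus. Of the genes called higher in control shRNA cells 2241 were tested in parental cells, and 1073 of them (47.9%) were called higher there too, while 539 of 1774 (30.4%) of those called lower were called lower. Among genes that changed at least 2-fold these shares were 62.9% and 63.1%. In the other direction, 81.9% of the genes called higher and 71.3% of those called lower in parental cells were called the same way in control shRNA cells. Over the genes called higher in control shRNA cells the median log2 fold change was 0.95 there and 0.59 in parental cells, and over those called lower -0.57 and -0.35. PTGES, a synthase of prostaglandin E2, had log2 fold changes of 7.51 in control shRNA cells and 4.18 in parental cells, ALDH1A1 -2.40 and -1.64, RORB -3.74 and -2.57, and AKAP12 -1.01 and -0.24, the last not called in parental cells.

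The genes called in opposite directions numbered 6 and were UBE4B, SESN2, FDPS, ABHD3, DPYSL3 and C9orf25, named after their values were seen. The call in control shRNA cells was lost for FDPS and ABHD3 whichever of its 4 libraries was left out (adjusted p of up to 0.225 and 0.181), for C9orf25 without either PRH virus library or empty virus library A (up to 0.291), and for DPYSL3 without PRH virus library B or empty virus library B (up to 0.199). SESN2, a stress-induced inhibitor of mTORC1, was at 7491 and 9638 with the PRH virus against 3538 and 4987 with the empty virus in control shRNA cells. It was at 2303 and 2464 with the PRH virus against 3781 and 3196 with the empty virus in parental cells. FDPS, an enzyme of the cholesterol pathway, was at 6269 and 7315 with the PRH virus against 9680.0 and 10230.3 with the empty virus in control shRNA cells. It was at 4055 and 4314 with the PRH virus against 2889 and 3241 with the empty virus in parental cells.

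**Figure D4:**
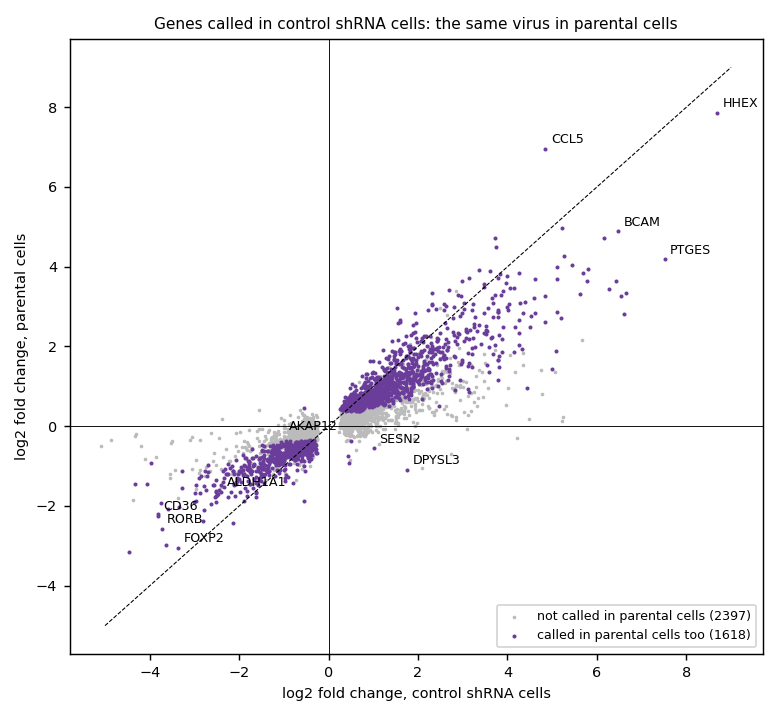
Log2 fold change, PRH virus over empty virus, in control shRNA cells (horizontal axis) and in parental cells (vertical axis) for the genes called in control shRNA cells and tested in both tables. Purple points were also called in parental cells and the dashed line marks equal changes. Most points lie between the dashed line and 0 on the vertical axis, and HHEX is at the upper right with 8.70 and 7.87.

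In the cells labelled NOTCH3 shRNA fewer genes were called for the PRH virus. NOTCH3 itself stood at 761 and 1086 with the PRH virus under that label, against 2295 and 2488 with the PRH virus in control shRNA cells. With the empty virus it stood at 655 and 1018 under that label against 711 and 838 in control shRNA cells, where the groups overlap. NOTCH3 was thus lower under the label with the PRH virus and not in both libraries with the empty virus, and these libraries are called by their label only. The PRH virus gave 350 calls (2.21% of 15836) in them, 301 (1.90%) higher and 49 (0.309%) lower, and the difference in response, tested as an interaction in the same model, passed for 1329 genes (8.39%), 778 (4.91%) with a higher and 551 (3.48%) with a lower log2 fold change in control shRNA cells. HHEX reached 71911 and 46576 with the PRH virus in the libraries labelled NOTCH3 shRNA, against 228979.8 and 330421 with the PRH virus in control shRNA cells. The part of this lower level in the differences of response was not tested. Of the genes called higher in control shRNA cells, 744 had a called interaction, and of those called lower 515, counts that share the control shRNA libraries with the calls. The count of 350 was 1097 with DESeq2 and 82 without the intensity trend, and that of 1329 was 2212 and 351. The count of 350 was 1 without either PRH virus library of the cells labelled NOTCH3 shRNA and 92 without their empty virus library A. The count of 1329 fell to 499 without their PRH virus library B and to 668 without empty virus library A of control shRNA cells.

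Several genes with a large difference in response differed between the empty virus libraries of control shRNA cells and those labelled NOTCH3 shRNA. GALNT6 was at 5019 and 5434 with the PRH virus and at 4893 and 5527 with the empty virus there, a log2 fold change of 0.01, whereas in control shRNA cells it was at 416 in each library with the PRH virus against 6.15 and 6.79 with the empty virus. BCAM had 1359 and 574 with the PRH virus and 1173 and 360.3 with the empty virus in those libraries. LAMA1 had 243 and 244 with the PRH virus and 306 and 267 with the empty virus. TLE2, PADI2, FGFR3 and MT1A behaved otherwise: their log2 fold changes were 2.42, 3.16, 2.40 and 1.97 in control shRNA cells and 1.95, 2.81, 2.18 and 2.08 in the libraries labelled NOTCH3 shRNA, with interactions that did not pass (adjusted p = 0.175, 0.59, 0.796 and 0.883), which does not show that the responses are alike.

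**Figure D5:**
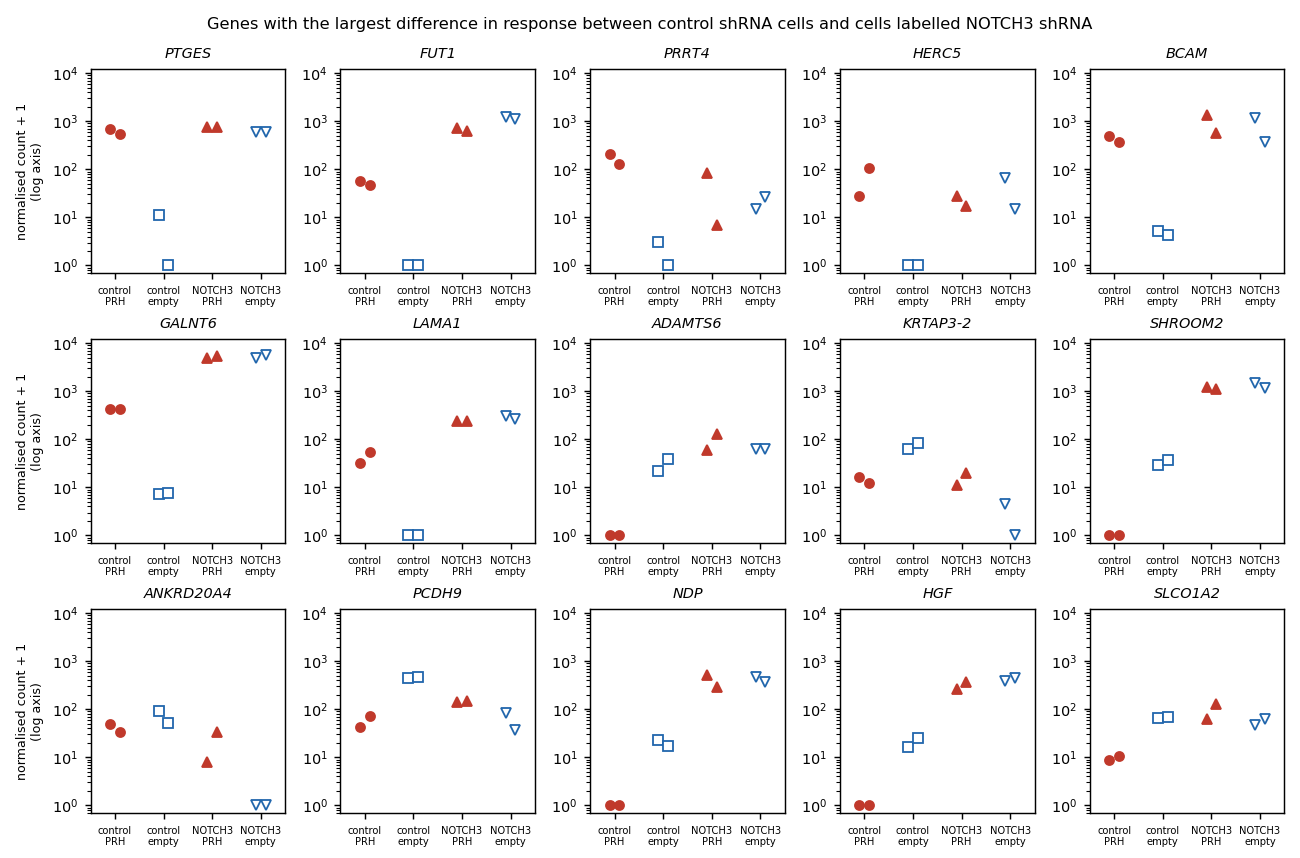
Normalised count plus 1 on a log axis in each library for the 15 named genes with the largest difference in response, with control shRNA cells (PRH virus, empty virus) on the left of each panel and the cells labelled NOTCH3 shRNA (PRH virus, empty virus) on the right. Filled symbols are PRH virus and open symbols empty virus. GALNT6, FUT1 and SHROOM2 stand at 632 to 5527 in the 4 libraries labelled NOTCH3 shRNA, and at 0 to 416 in the control shRNA libraries.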

How the data were processed

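Polyadenylated RNA of CCLP1 cells was sequenced after TruSeq library preparation, per the labels' protocols. Per the submitters' processing notes, reads were handled with Trim Galore, TopHat (hg19 build), featureCounts and DESeq2, while versions, settings and use of strand are not named. What the authors deposited is a signal, each gene's reads over a size factor of its library: 100% of values came out as whole reads within 1e-06, so reads were recovered. Without stated strand, reads of genes that overlap on opposite strands cannot be told apart. The 28 lines with a date in place of a symbol were left out (0.238% to 0.262% of reads in the 4 libraries), leaving 23340 symbols. The control column of the parental table is named after a GFP virus, whereas the labels call it empty.

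Groups were compared in R 4.3.3 with limma 3.58.1 and an intensity trend on log2(value + 1), all 8 libraries of the table in 1 model of group means, and genes that reached 10 normalised counts in 2 or more libraries. The parental table was fitted alone. edgeR 4.0.16 and DESeq2 1.42.0 on recovered reads, and further alternatives, are in the closing section. Groups of 2 libraries are too small for an exact rank test to pass.

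The comparison and the 65 gene lists were chosen with earlier results of these data known. The rule for named genes takes HHEX, NOTCH3, the 15 largest changes per direction (group mean at least 50, no overlap), the 10 per direction with the highest level among at least 2-fold changes, the 8 largest interactions per direction, and up to 3 called members per list and direction by smallest adjusted p. Antisense and LOC names were counted and not named, and a few genes that the rule takes are not reported here. GC content and promoters come from references of GRCh38.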

Additional observations from a re-analysis of the deposited data

Results flagged for a closer look

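The response to the PRH virus differed between control shRNA cells and the cells labelled NOTCH3 shRNA in 1329 genes by the interaction term of limma. The differences below are of log2 fold changes, control shRNA cells minus cells labelled NOTCH3 shRNA, and each passed at an adjusted p under 0.05 over all genes. HHEX reached a lower level with the PRH virus in the cells labelled NOTCH3 shRNA (71911 and 46576, against 228979.8 and 330421 in control shRNA cells), and its part was not tested.

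Larger responses upward in control shRNA cells were found for PTGES (7.20), FUT1 (6.44), PRRT4 (6.27), HERC5 (6.24), BCAM (6.04), GALNT6 (5.80) and LAMA1 (5.60). FUT1, which makes the H blood group antigen, stood at 55.4 and 45.4 with the PRH virus and at 0 in both libraries with the empty virus in control shRNA cells, and at 737 and 632 with the PRH virus against 1220 and 1096 with the empty virus in the cells labelled NOTCH3 shRNA. PTGES was at 745 and 759.6 with the PRH virus and at 603 and 609 with the empty virus in those cells.

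Differences downward were found for ADAMTS6 (-5.33), KRTAP3-2 (-5.17), SHROOM2 (-4.84), ANKRD20A4 (-4.78), PCDH9 (-4.45), NDP (-4.19), HGF (-3.96) and SLCO1A2 (-3.54). HGF, the ligand of the receptor MET, was at 0 in both PRH virus libraries and at 15.4 and 23.8 with the empty virus in control shRNA cells, at least 7.18-fold lower, and at 266 and 375 with the PRH virus against 381 and 441 with the empty virus in the cells labelled NOTCH3 shRNA. PCDH9, a protocadherin, was at 42.6 and 70.5 with the PRH virus against 456 and 476 with the empty virus in control shRNA cells, and at 143 and 147 with the PRH virus against 81.7 and 36.5 with the empty virus in the cells labelled NOTCH3 shRNA. KRTAP3-2 and ANKRD20A4 were not called in control shRNA cells themselves (adjusted p = 0.0857 and 0.591).

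The interactions of FUT1, BCAM, GALNT6, LAMA1, SHROOM2 and PCDH9 held in each of the 8 fits that left out 1 library. PTGES lost its call without PRH virus library A or B of the cells labelled NOTCH3 shRNA (adjusted p = 0.0502 and 0.0613), NDP without library A of that group (0.0575), HGF without its library B (0.0794) or empty virus library A of those cells (0.0547), and ADAMTS6 without its library B (0.0620) or empty virus library B of control shRNA cells (0.0539). HERC5 and SLCO1A2 lost theirs in 6 of the 8 fits and PRRT4, KRTAP3-2 and ANKRD20A4 in 7, with adjusted p of up to 0.115, 0.109, 0.141, 0.134 and 0.178.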

How the results depend on the processing

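No paired analysis was possible because the columns carry no replicate number. Without the intensity trend the counts of calls were 2730 in control shRNA cells, 351 for the interaction, 758 in parental cells and 82 in the cells labelled NOTCH3 shRNA, and with DESeq2 they were 4823, 2212, 2290 and 1097. With no filter on low values they were 4077, 1173, 1382 and 273. Only the 4 control shRNA libraries gave 2560 calls, and 5017 with the filter on those 4 as well, a setting chosen after seeing the data. Fits without 1 library gave 2208 to 2891, 499 to 1155, 1314 to 2101 and 1 to 376 calls in the same order. In control shRNA cells the count was 4386 with a pseudocount of 5, 4229 after scaling to equal totals and 4139 with edgeR. Of the 306 named genes, the call was lost for 3 with DESeq2, 12 with edgeR, 65 without the trend, 18 after scaling to equal totals and 99 with the 4 libraries alone, and none of these changed sign. The cause of these shifts was not tested. Genes with few reads are limited by depth, and folds against 0 reads are bounds.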
